A study of Rattus norvegicus with 9 samples.

Results

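The genes described here build the extracellular matrix of the heart or bind and cut it. They are collagens, laminins, fibronectin and other matrix glycoproteins, lysyl oxidases, matrix metalloproteinases (MMPs), their tissue inhibitors (TIMPs), the ADAMTS proteases and the integrins. They were chosen by gene symbol from a table of read counts with 17327 rows, of which 117 matched the name pattern. A minimum of 10 reads in at least 3 of the 9 samples left 104 members, a rule that uses no difference between groups. All 104 were tested in the fit over all genes, and each adjusted p is that of edgeR's quasi-likelihood test, adjusted over all genes, with a threshold of 0.05. The cells were primary ventricular cardiomyocytes of newborn rats in culture, studied under 2 stimuli of hypertrophic growth. Phenylephrine, an agonist of alpha-adrenergic receptors, was given at 50 µM, and IGF1, insulin-like growth factor 1, at 10 nM, each for 48 hours, while control cells received vehicle. Each of the 3 groups had 3 samples, and RNA was measured by sequencing. Strain, genotype, sex and litter are not given in the sources used here, and neither is whether the samples of a group were separate cultures, so the p-values measure a spread that may be technical.

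The cardiac matrix has a basement membrane around each myocyte, a sheet of laminin and type IV collagen networks, and an interstitial part of fibrils, mainly of type I and type III collagen, with fibronectin and other glycoproteins. Integrins are pairs of an alpha and a beta subunit in the cell membrane that bind laminin, collagen or fibronectin outside and the actin cytoskeleton inside. Lysyl oxidases crosslink the fibrils, and MMPs and ADAMTS proteases cut or process matrix proteins, with TIMPs holding many of them in check. In the heart, fibroblasts are known as the main source of fibrillar collagens, and myocytes as a source of basement membrane proteins.

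Total reads ran from 31274396 to 48505265 per sample, and the 104 members held 2.49% to 3% of them. A level of 1 CPM, the unit of read counts set relative to library size and scaled here by TMM normalization factors, rested on 29.1 to 51.6 reads. Cardiomyocyte markers were abundant, with summed levels over 11 genes of 73354 to 74195 CPM with phenylephrine, 55792 to 78345 CPM with IGF1 and 48506 to 52299 CPM with vehicle. Genes on the marker lists of other cell types were also read, and which cells their reads came from was not tested. The 11 fibroblast markers summed to 3003 to 3156 CPM with phenylephrine, 2549.6 to 2693 CPM with IGF1 and 2449 to 2483 CPM with vehicle, and the 10 smooth muscle and pericyte markers to 7124 to 7371 CPM with phenylephrine, 3712 to 5529.9 CPM with IGF1 and 3512 to 3584 CPM with vehicle. The 10 endothelial markers summed to 68.1 to 80.4 CPM with phenylephrine, 38 to 44 CPM with IGF1 and 81.1 to 89.2 CPM with vehicle, and the 11 macrophage and leukocyte markers, of which Cd163 had no read in 5 of 9 samples, to 73.3 to 95 CPM with phenylephrine, 73.5 to 81.2 CPM with IGF1 and 80.0 to 91.2 CPM with vehicle. Of the 10 endothelial markers, 1 rose and 1 fell with phenylephrine (1 and 3 without IGF1 replicate 1), beside 27.9% and 28.9% of all genes. With IGF1, 0 rose and 7 fell, with or without that sample, beside 24.7% and 23.4% of all genes. The 7 epicardial markers summed to 66.6 to 68.6 CPM with phenylephrine, 56.3 to 64.4 CPM with IGF1 and 69.7 to 76.5 CPM with vehicle. Of these, 2 rose and 3 fell with phenylephrine, and 0 rose and 3 fell with IGF1, beside the same shares. In these bulk samples, fewer cells of a type and less RNA per cell cannot be told apart. One library, IGF1 replicate 1, stood apart. It differed from IGF1 replicates 2 and 3 with a chi-square per degree of freedom of 82.4 to 85.1, against 2.97 to 7.43 for every other pair of samples of a group. Where leaving it out changed a call whose value is given here, or moved a called value by over 1.5 times, the value without it is given as well.

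With phenylephrine, 30 of the 104 members rose and 33 fell against vehicle, that is 28.8% and 31.7% of members, beside 27.9% and 28.9% of all 11873 genes tested. The median log2 fold change was -0.084 over the members and -0.029 over all genes. These shares lie near the background, but the classes split. Laminins and basement membrane collagens held 9 of the 30 rises with 2 falls, while fibrillar collagens and ADAMTS proteins held 16 of the 33 falls with 3 rises. At least 2-fold changes were called for 10 members upwards and 4 downwards, beside 3.04% and 4.14% of all genes. The 30 rises and these 10 include Mmp10, which reached the minimum of 10 reads through its phenylephrine samples. Scaling by library size alone shifted the median of all genes to -0.223 and gave 23 higher and 48 lower members, beside 14.7% and 48% of all genes under the same scaling.

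With IGF1, 26 members rose and 30 fell against vehicle, 25% and 28.8% of the members, beside 24.7% and 23.4% of all genes tested. The median was 0.009 over the members and -0.002 over all genes, and at least 2-fold changes were called for 3 members upwards and 4 downwards, beside 2.29% and 2.13% of all genes. In the direct comparison of phenylephrine with IGF1, 36 members were higher and 29 lower with phenylephrine, 34.6% and 27.9% of the members, beside 27.1% and 27.1% of all genes. At least 2-fold differences were called for 6 members in each direction, beside 3.36% and 5.33% of all genes. With scaling by total reads alone, 29 members were higher and 35 lower with phenylephrine than with IGF1 at any fold, beside 18% and 36.8% of all genes, whose median was then -0.114. Without IGF1 replicate 1, 30 members were higher and 40 lower for phenylephrine against vehicle, beside 31.2% and 32.2% of all genes in that fit. For IGF1 against vehicle they were 35 and 33, beside 27.4% and 26.6% of all genes, and for phenylephrine against IGF1 39 and 34, beside 30.4% and 30.2%. All 63, 56 and 65 members called with every sample kept their direction and their call without it. The members gained for phenylephrine against vehicle were Fbn1, Fbn2, Thbs2, Lox, Mmp2, Timp3 and Itgb2, each lower. Those gained for IGF1 against vehicle were Fbn1, Fbn2, Col4a4, Loxl2, Timp2, Timp3, Adamts5, Adamts12 and Itga6, each higher, and Mmp24, Adamtsl5 and Itga5, each lower. For phenylephrine against IGF1 they were Adamts19, Itga6 and Itgb1bp2, each higher, and Col1a1, Col4a4, Col14a1, Loxl2 and Mmp16, each lower.

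**Figure D1:**
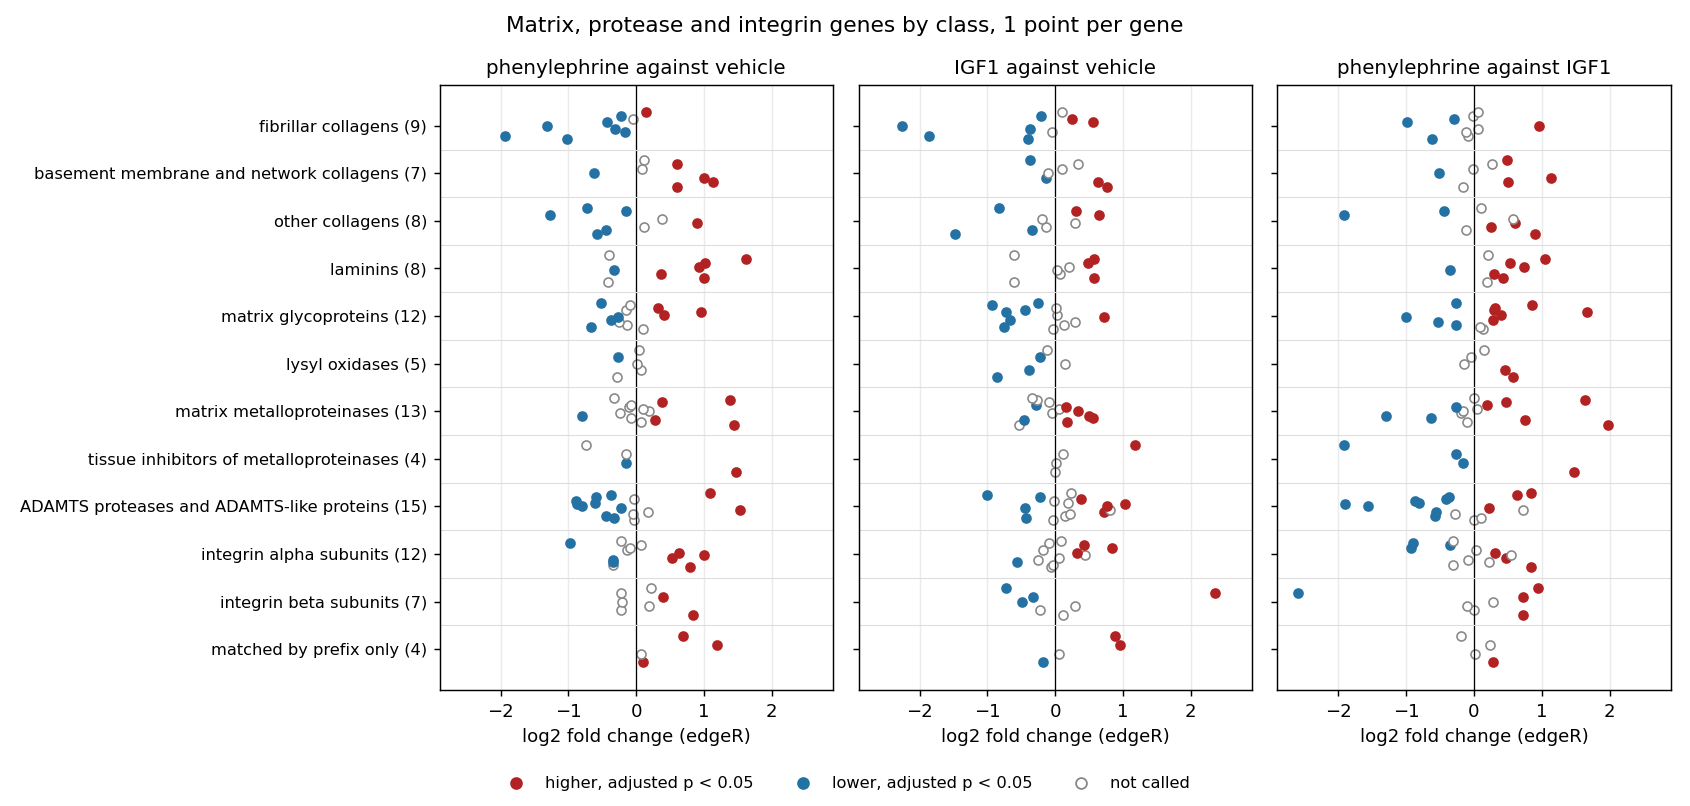
Log2 fold change of each of the 104 members, by class, in 3 comparisons: phenylephrine against vehicle, IGF1 against vehicle and phenylephrine against IGF1. Each point is a member, filled where the edgeR adjusted p passed 0.05, and values above 0 mean higher in the group named first. Laminins and basement membrane collagens lie mostly above 0 with phenylephrine (class medians 0.65 and 0.60), and fibrillar collagens and ADAMTS proteins mostly below (-0.31 and -0.34).

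Because phenylephrine and IGF1 were set against the same 3 vehicle samples, the values of both comparisons are given side by side for the members, with no measure of their likeness. By direction of call, 5 members were higher with phenylephrine and lower with IGF1 (Col4a1, Thbs1, Mmp12, Itgb5 and Col4a3bp), and 7 were lower with phenylephrine and higher with IGF1 (Col3a1, Col26a1, Col6a2, Postn, Mmp15, Adamts3 and Adamts4). All 12 of these were also called in the direct comparison. In the same fit, that difference is the phenylephrine value minus the IGF1 value. For members picked by opposite calls it is larger in size than either value, so the direct calls are no separate test of the opposite directions. Some of the opposite patterns rest on a call that ended when some single samples were left out. Those of Col4a1 with IGF1 and of Mmp12, Col4a3bp, Col6a2 and Adamts4 with phenylephrine are given below. The rise of Col26a1 with IGF1 ended without IGF1 replicate 2 or 3 or vehicle replicate 1 or 2 (log2 0.51 to 0.68, adjusted p = 0.053 to 0.12), and with scaling by total reads alone (0.058). Another 8 members were higher with both stimuli, among them Col18a1, Lama4 and Lamc1, and 17 were lower with both, among them Fn1, Fbln5 and Col11a1. In the edgeR fit over all samples, 18 members passed the threshold in none of the 3 comparisons. How many of all genes share each of these patterns was not counted, so the numbers are not read as particular to the members. Against vehicle, 56.8% of all genes were called in either direction with phenylephrine and 48.1% with IGF1.

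Among the laminins, 5 of 8 members rose with phenylephrine and 1 fell, and 3 rose with IGF1 and none fell. Over all genes tested, 27.9% rose and 28.9% fell with phenylephrine, and 24.7% rose and 23.4% fell with IGF1. This class count and those below stand beside these shares. Laminins are trimers of an alpha, a beta and a gamma chain and form the cell-facing network of the basement membrane. Lamc1, the gamma 1 chain found in most laminins of the heart, had 2162, 2318 and 2252 CPM with phenylephrine, 1677, 1489.6 and 1468 CPM with IGF1 and 1112, 1139 and 1073 CPM with vehicle. The 3 groups did not overlap, with phenylephrine the highest and vehicle the lowest. The rise was 2.03-fold with phenylephrine (log2 fold change 1.02 ± 0.055 SE, adjusted p = 1.8e-09) and 1.39-fold with IGF1 (log2 fold change 0.48 ± 0.055 SE, adjusted p = 4.8e-06), and phenylephrine exceeded IGF1 by log2 0.54 (adjusted p = 9.8e-07).

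Lamb3, a beta chain best known from the laminins of epithelia, had 356, 375 and 365 CPM with phenylephrine, 271, 193 and 195 CPM with IGF1 and 183, 192 and 199.5 CPM with vehicle. It rose 1.91-fold with phenylephrine (log2 fold change 0.93 ± 0.13 SE, adjusted p = 4.2e-04), and all phenylephrine samples lay above all others. IGF1 replicates 2 and 3 lay within the vehicle range and IGF1 replicate 1 above it, and the difference of IGF1 from vehicle did not pass (log2 0.20, adjusted p = 0.23).

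Lama4, an alpha chain of heart and vessel basement membranes, had 434, 455 and 430.4 CPM with phenylephrine, 372, 304 and 301 CPM with IGF1 and 216, 226 and 216 CPM with vehicle. The groups were again fully separated, and the rise was 2.00-fold with phenylephrine (log2 1.003, adjusted p = 8e-08) and 1.48-fold with IGF1 (log2 0.57, adjusted p = 1.8e-05). Lama5 rose with phenylephrine (log2 0.37, adjusted p = 9.3e-06) and had a log2 fold change of 0.07 with IGF1, which did not pass (adjusted p = 0.25). Lamb2, the beta chain of laminins at muscle synapses, moved the other way, with 744, 787 and 749.5 CPM with phenylephrine, 941, 990.2 and 989 CPM with IGF1 and 949, 969 and 950.4 CPM with vehicle. Its fall with phenylephrine was 1.26-fold (log2 -0.33, adjusted p = 1.1e-05), and all phenylephrine samples lay below all others. Summed over the 8 laminins, the level was 4698 ± 151 CPM with phenylephrine, 3645 ± 212 CPM with IGF1 and 2972 ± 60.5 CPM with vehicle (SD, n = 3 each). Lamb1 and Lama2, which were to be named in any case, had no row in the table under those symbols.

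Of the 7 basement membrane and network collagens, 4 rose and 1 fell with phenylephrine, and 2 rose and 2 fell with IGF1. Col4a1, a chain of the type IV collagen network found in all basement membranes, had 2765, 2975 and 2841 CPM with phenylephrine, 1363, 1255 and 1292 CPM with IGF1 and 1501, 1457 and 1342 CPM with vehicle. Every phenylephrine sample was above every other sample, and the rise was 2.00-fold (log2 fold change 0.997 ± 0.053 SE, adjusted p = 1.6e-09). With IGF1 the level was lower by log2 -0.14 (adjusted p = 0.044), but the IGF1 and vehicle samples overlapped, with IGF1 replicate 1 above vehicle replicate 3. That call ended without any 1 phenylephrine sample, IGF1 replicate 2 or 3 or vehicle replicate 1 or 2 (log2 -0.14 to -0.11, adjusted p = 0.058 to 0.15), and with only the 2 groups compared (0.08). The difference of phenylephrine from IGF1 was log2 1.13 (adjusted p = 2.2e-10).

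Col18a1, whose protein carries heparan sulfate and gives rise to endostatin, had 258, 281 and 259 CPM with phenylephrine, 184, 184 and 197 CPM with IGF1 and 131, 124 and 111 CPM with vehicle. The groups did not overlap, and both stimuli raised it, by 2.18-fold with phenylephrine (log2 fold change 1.13 ± 0.059 SE, adjusted p = 1.6e-09) and 1.55-fold with IGF1 (log2 fold change 0.63 ± 0.058 SE, adjusted p = 6.8e-07). Col15a1, a related collagen at the outer face of the basement membrane, had 20.4, 21.5 and 23.9 CPM with phenylephrine, 25.3, 24 and 24.6 CPM with IGF1 and 15.3, 15.2 and 12.8 CPM with vehicle. It rose with phenylephrine (log2 0.61, adjusted p = 1.9e-05) and with IGF1 (log2 0.77, adjusted p = 2.2e-06), and the direct difference did not pass (log2 -0.16, adjusted p = 0.1; it passed without phenylephrine replicate 3 (log2 -0.23, adjusted p = 0.049), and with scaling by total reads alone (0.016)).

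The type IV chains among the members did not move alike, and Col4a2 had no row in the table under that symbol. Col4a3, a chain of a more restricted type IV network, had 24.3, 26.4 and 25.9 CPM with phenylephrine, 27.7, 40.2 and 40.8 CPM with IGF1 and 41.8, 38.3 and 37.8 CPM with vehicle. It fell with phenylephrine (log2 -0.62, adjusted p = 0.0023), while with IGF1 replicate 1 was low and replicates 2 and 3 lay at the vehicle level (log2 -0.11, adjusted p = 0.51). Its neighbour on chromosome 9, Col4a4, partner of Col4a3 in one trimer, passed in no comparison in the edgeR fit over all samples. Its difference of IGF1 from vehicle passed without IGF1 replicate 1 (log2 0.28, adjusted p = 0.0014), and in limma voom with sample quality weights (0.014). Col8a1, a network collagen of vessel walls, fell with IGF1 (log2 -0.38, adjusted p = 3.4e-04). The class, with most of its reads in Col4a1, summed to 3255 ± 126 CPM with phenylephrine, 1617 ± 45.9 CPM with IGF1 and 1684 ± 100.1 CPM with vehicle (SD, n = 3 each).

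**Figure D2:**
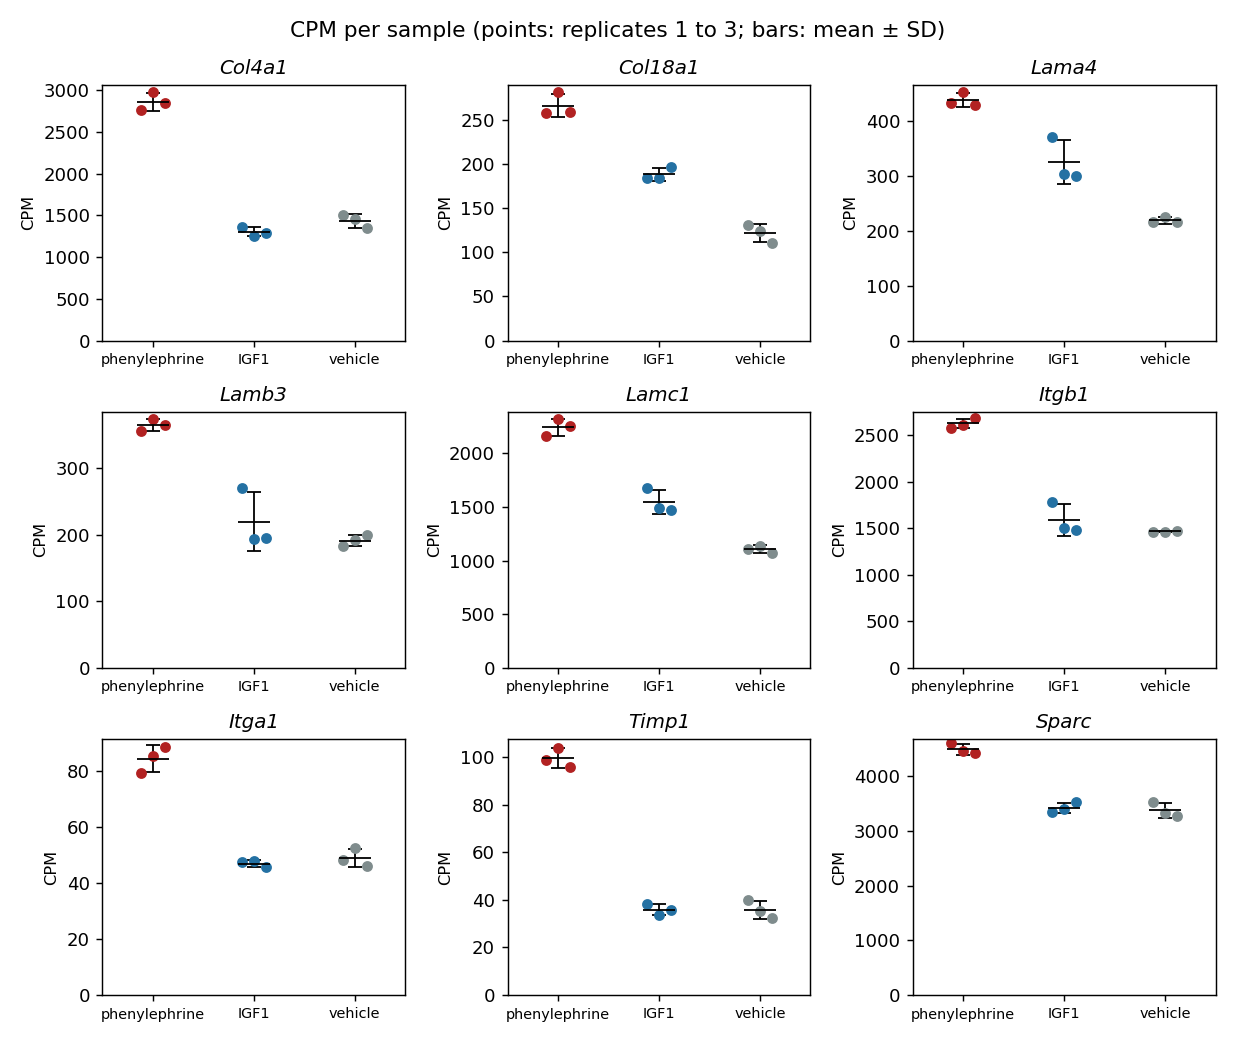
Levels in CPM of 9 members that rose with phenylephrine (Col4a1, Col18a1, Lama4, Lamb3, Lamc1, Itgb1, Itga1, Timp1 and Sparc), with each sample as a point and the mean ± SD of 3 samples per group. Groups run from phenylephrine through IGF1 to vehicle, and each axis starts at 0. In every panel the 3 phenylephrine samples lie above the 6 others, and all IGF1 samples lie above all vehicle samples in the panels of Col18a1, Lama4, Lamc1 and, by a small margin, Itgb1.

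Of the 9 fibrillar collagens, 7 fell and 1 rose with phenylephrine, and 5 fell and 2 rose with IGF1. Col1a1, the alpha 1 chain of type I collagen, had 3112, 3069.5 and 3064 CPM with phenylephrine, 3072, 3449 and 3560.0 CPM with IGF1 and 3791, 3453 and 3137 CPM with vehicle. The phenylephrine samples lay just under the vehicle range, and the fall of log2 -0.17 only just passed (adjusted p = 0.046). It ended without any 1 phenylephrine sample or vehicle replicate 1 or 2 (log2 -0.18 to -0.11, adjusted p = 0.078 to 0.19), and with RLE factors (0.056) and with only the 2 groups compared (0.078). With IGF1 the log2 fold change was -0.04 and did not pass (adjusted p = 0.64). Col1a2, the other chain of type I collagen, had 1 to 10 reads per sample and stayed below the minimum, so type I collagen is described by Col1a1 alone.

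Col3a1, the type III collagen of distensible tissues, had 1046, 1114 and 1035 CPM with phenylephrine, 1914, 2142 and 2267 CPM with IGF1 and 1529, 1477 and 1308 CPM with vehicle. The groups did not overlap, with IGF1 the highest and phenylephrine the lowest. Col3a1 fell 1.35-fold with phenylephrine (log2 fold change -0.43 ± 0.068 SE, adjusted p = 7.9e-05) and rose 1.47-fold with IGF1 (log2 fold change 0.55 ± 0.068 SE, adjusted p = 1.1e-05). The direct difference of phenylephrine from IGF1 was log2 -0.98 (SE 0.068, adjusted p = 2.1e-08). Col5a2, its neighbour on chromosome 9, encodes a chain of type V collagen, which sits within type I fibrils. It fell with both stimuli, by log2 -0.22 with phenylephrine (adjusted p = 0.0058) and -0.21 with IGF1 (adjusted p = 0.0099, a call that ended without vehicle replicate 1 (log2 -0.17, adjusted p = 0.05) and was log2 -0.14 without IGF1 replicate 1). Col5a1, another chain of type V, had 422, 474 and 451 CPM with phenylephrine, 507, 570.3 and 580.3 CPM with IGF1 and 488, 489 and 422 CPM with vehicle. It rose with IGF1 (log2 0.25, adjusted p = 0.0081), a call that ended without vehicle replicate 3 (log2 0.17, adjusted p = 0.051), and with scaling by total reads alone (0.14), and with phenylephrine it had log2 -0.05 (adjusted p = 0.52, which passed with scaling by total reads alone (0.029)).

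The largest falls of the class were those of collagens known from cartilage. Col2a1, the main cartilage collagen, had 1.65, 1.95 and 1.97 CPM with phenylephrine, 0.790, 1.11 and 0.943 CPM with IGF1 and 4.83, 4.13 and 4.87 CPM with vehicle. All stimulated samples lay below all vehicle samples, with falls of log2 -1.31 with phenylephrine (adjusted p = 1.3e-05) and -2.27 with IGF1 (adjusted p = 1.3e-07). Col11a2 was low throughout, with 0.756, 0.672 and 0.614 CPM with phenylephrine, 0.461, 0.745 and 0.901 CPM with IGF1 and 2.75, 2.57 and 2.54 CPM with vehicle. Its falls were log2 -1.94 (adjusted p = 1.2e-05) and -1.86 (adjusted p = 1.5e-05). Col11a1, another chain of type XI, which is also found in heart, had 44.1, 49.1 and 45.3 CPM with phenylephrine, 58.3, 74.2 and 79.1 CPM with IGF1 and 98.5, 94.1 and 88.5 CPM with vehicle. It fell 2.03-fold with phenylephrine (adjusted p = 1.3e-05) and 1.32-fold with IGF1 (adjusted p = 0.0065). Summed over the class, the level was 5081 ± 66.6 CPM with phenylephrine, 6528 ± 513 CPM with IGF1 and 5952 ± 508 CPM with vehicle (SD, n = 3 each). Of the fibroblast markers, Pdgfra had 24.1, 23.8 and 24.4 CPM with phenylephrine, 21, 26 and 24.6 CPM with IGF1 and 32.1, 32.8 and 29 CPM with vehicle, and Tcf21 passed in no comparison in the edgeR fit (adjusted p = 0.44 to 0.78). The markers did not move alike. Over all 11, 3 were higher (Dcn, S100a4 and Gsn) and 2 lower (Pdgfra and Vim) with phenylephrine, beside 27.9% and 28.9% of all genes. With IGF1, 4 were higher (Lum, Thy1, S100a4 and Dpt) and 1 lower (Pdgfra), beside 24.7% and 23.4% of all genes. Without IGF1 replicate 1 Vim was lower with IGF1 too. The part of these markers in the collagen levels was not tested.

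Of the 8 other collagens, 5 fell and 1 rose with phenylephrine, and 3 fell and 2 rose with IGF1. Col6a2, a chain of the beaded filaments of type VI collagen, had 257, 242 and 250.3 CPM with phenylephrine, 323, 340.1 and 359 CPM with IGF1 and 296, 281 and 252 CPM with vehicle. It rose with IGF1 (log2 0.30, adjusted p = 4.9e-04) and was lower with phenylephrine by log2 -0.14 (adjusted p = 0.043). The lower call ended without any 1 phenylephrine sample or vehicle replicate 1 or 2 (log2 -0.17 to -0.11, adjusted p = 0.058 to 0.16), and with RLE factors (0.055), in DESeq2 (0.061) and with only the 2 groups compared (0.053). Col14a1, which binds the surface of collagen fibrils, had 271, 284 and 283 CPM with phenylephrine, 261, 320.0 and 324 CPM with IGF1 and 389, 392 and 360.3 CPM with vehicle, and fell with both stimuli (log2 -0.45, adjusted p = 1.5e-04 with phenylephrine; log2 -0.33, adjusted p = 0.0017 with IGF1). Col13a1, a collagen that spans the cell membrane, had 6.53, 7.19 and 8.30 CPM with phenylephrine, 3.06, 4.70 and 3.92 CPM with IGF1 and 11.9, 10.8 and 10.1 CPM with vehicle. Both stimulated groups lay below vehicle, IGF1 the lowest, with log2 -0.57 for phenylephrine (adjusted p = 0.0023) and -1.47 for IGF1 (adjusted p = 8.3e-07).

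Of the 12 matrix glycoproteins, 3 rose and 4 fell with phenylephrine, and 1 rose and 6 fell with IGF1. Without IGF1 replicate 1 these counts were 3 and 7 with phenylephrine and 3 and 6 with IGF1. Thbs1, thrombospondin 1, which binds cells and matrix and can activate latent TGF-beta, had 855, 897 and 891 CPM with phenylephrine, 314, 248 and 267 CPM with IGF1 and 481, 452 and 430.2 CPM with vehicle. The groups did not overlap, phenylephrine lying highest and IGF1 lowest. Thbs1 rose 1.94-fold with phenylephrine (log2 fold change 0.95 ± 0.073 SE, adjusted p = 2.7e-07) and fell 1.65-fold with IGF1 (log2 fold change -0.72 ± 0.073 SE, adjusted p = 4.9e-06). The difference of phenylephrine from IGF1 was 3.19-fold (log2 1.67, adjusted p = 1.4e-09).

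Postn, periostin, a matricellular protein known from activated fibroblasts and fibrosis, showed the reverse order, with 387, 393 and 379 CPM with phenylephrine, 749, 774 and 792 CPM with IGF1 and 503, 478 and 417 CPM with vehicle. It fell with phenylephrine (log2 -0.27, SE 0.058, adjusted p = 0.001) and rose 1.66-fold with IGF1 (log2 0.73, SE 0.058, adjusted p = 1.3e-07). Each IGF1 sample was above each vehicle sample, and each phenylephrine sample below. Fn1, fibronectin, had 3523, 3532 and 3613 CPM with phenylephrine, 2609, 3024 and 3114 CPM with IGF1 and 4753, 4702 and 4357 CPM with vehicle. It fell with both stimuli, 1.29-fold with phenylephrine (log2 -0.37, adjusted p = 1.1e-04) and 1.58-fold with IGF1 (log2 -0.66, adjusted p = 6.4e-07).

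Sparc, a protein that binds collagen outside the cell, had 4610.3, 4456 and 4421 CPM with phenylephrine, 3353, 3397 and 3529.8 CPM with IGF1 and 3533, 3328 and 3270.0 CPM with vehicle. Only the phenylephrine samples stood apart, by 1.33-fold against vehicle (log2 0.41, adjusted p = 3.1e-06), and IGF1 overlapped vehicle (log2 0.02, adjusted p = 0.74). Tnc, tenascin C, which is known to appear during tissue injury, had 101, 103 and 99.3 CPM with phenylephrine, 101, 133 and 128 CPM with IGF1 and 149, 146 and 139 CPM with vehicle. It fell with phenylephrine (log2 -0.52, adjusted p = 2.8e-04). It was also lower with IGF1 (log2 -0.26, adjusted p = 0.024), where replicate 1 was far below replicates 2 and 3, and that call ended without vehicle replicate 1 or 2 (log2 -0.26 to -0.25, adjusted p = 0.051 to 0.066), and with only the 2 groups compared (0.053). Without IGF1 replicate 1 it was log2 -0.15, adjusted p = 8.2e-04. Fbln5, fibulin 5, an organiser of elastic fibres, fell with phenylephrine (log2 -0.67, adjusted p = 1.9e-05) and with IGF1 (log2 -0.76, adjusted p = 7.9e-06). Thbs4 had 4.88, 3.65 and 4.52 CPM with phenylephrine, 2.40, 2.28 and 2.54 CPM with IGF1 and 5.15, 4.25 and 4.42 CPM with vehicle, and fell with IGF1 (log2 -0.94, adjusted p = 1.3e-04).

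The fibrillins form microfibrils. Fbn1 had 362, 374 and 360.0 CPM with phenylephrine, 370.3, 477 and 473 CPM with IGF1 and 416, 415 and 372 CPM with vehicle, and Fbn2 had 39.4, 46.5 and 44 CPM with phenylephrine, 51.2, 68.1 and 68.4 CPM with IGF1 and 50.1, 55.1 and 49 CPM with vehicle. In both, IGF1 replicates 2 and 3 lay above every vehicle sample and replicate 1 did not. Against vehicle neither passed in the edgeR fit over all samples, whether with phenylephrine (Fbn1 adjusted p = 0.22, Fbn2 0.091) or with IGF1 (Fbn1 0.23, Fbn2 0.056). With phenylephrine, Fbn1 was lower without IGF1 replicate 1 (log2 -0.13, adjusted p = 7.3e-04), and with scaling by total reads alone (0.038), in limma voom with sample quality weights (0.0082) and with only the 2 groups compared (0.0027), and Fbn2 was lower without IGF1 replicate 1 (log2 -0.25, adjusted p = 9.7e-05), and with scaling by total reads alone (0.016), in DESeq2 (0.04), in limma voom with sample quality weights (0.002) and with only the 2 groups compared (3.0e-04). With IGF1, Fbn1 was higher without IGF1 replicate 1 (log2 0.25, adjusted p = 7.5e-07), and in limma voom with sample quality weights (5.8e-04), and Fbn2 was higher without phenylephrine replicate 1 or IGF1 replicate 1 (log2 0.29 to 0.41, adjusted p = 5.1e-08 to 0.048), and in DESeq2 (0.013) and in limma voom with sample quality weights (1.9e-05).

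Of the 5 lysyl oxidases, the enzymes that crosslink collagen and elastin, 1 fell and none rose with phenylephrine, and 3 fell and none rose with IGF1. Without IGF1 replicate 1, 2 fell and none rose with phenylephrine, and 3 fell and 1 rose with IGF1. The rise was that of Loxl2 (log2 0.23, adjusted p = 1.5e-05). Lox had 48.4, 50.1 and 50.5 CPM with phenylephrine, 26.1, 37 and 36.3 CPM with IGF1 and 65.7, 60.1 and 56.1 CPM with vehicle. The IGF1 samples lay below all others, 1.82-fold under vehicle (log2 -0.86, SE 0.12, adjusted p = 3.0e-04). The phenylephrine samples also lay below all vehicle samples, yet the difference did not pass with all samples (log2 -0.29, adjusted p = 0.063). It passed without any 1 IGF1 sample or vehicle replicate 3 (log2 -0.35 to -0.29, adjusted p = 1.7e-06 to 0.049), and with scaling by total reads alone (0.014), in DESeq2 (0.019), in limma voom with sample quality weights (2.3e-04) and with only the 2 groups compared (6.6e-06). Loxl1, which acts mainly on elastic fibres, had 95.6, 95.7 and 97.4 CPM with phenylephrine, 67.4, 68.3 and 74.6 CPM with IGF1 and 100.4, 91.9 and 81.4 CPM with vehicle and fell with IGF1 (log2 -0.38, adjusted p = 2.4e-04).

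Among the MMPs, 4 of 13 members rose and 1 fell with phenylephrine, and 5 rose and 2 fell with IGF1. Mmp15, a membrane-bound MMP, had 75.8, 87.5 and 81.2 CPM with phenylephrine, 189.9, 208 and 204 CPM with IGF1 and 139, 147 and 142 CPM with vehicle. The groups did not overlap, with IGF1 the highest. The fall with phenylephrine was 1.75-fold (log2 fold change -0.81 ± 0.053 SE, adjusted p = 1.3e-08), the rise with IGF1 1.41-fold (log2 fold change 0.49 ± 0.052 SE, adjusted p = 2.2e-06) and the difference of phenylephrine from IGF1 log2 -1.30 (adjusted p = 5.5e-11). Mmp14, the membrane-bound MMP that activates the MMP2 proenzyme, had 101, 98.7 and 95.6 CPM with phenylephrine, 149.7, 155 and 155 CPM with IGF1 and 111, 105 and 95.9 CPM with vehicle. All IGF1 samples exceeded all others, by 1.47-fold against vehicle (log2 0.56, adjusted p = 3.9e-07). With phenylephrine the log2 fold change of -0.08 did not pass (adjusted p = 0.19; it passed without vehicle replicate 3 (log2 -0.15, adjusted p = 0.02), and with scaling by total reads alone (0.0018)).

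Mmp2, a gelatinase, had 718, 706 and 683 CPM with phenylephrine, 774, 869.8 and 895 CPM with IGF1 and 809, 752 and 707 CPM with vehicle. IGF1 replicate 1 lay within the vehicle range and replicates 2 and 3 above it, and the call as higher with IGF1 (log2 0.16, adjusted p = 0.034) ended without any 1 phenylephrine sample, IGF1 replicate 2 or 3 or vehicle replicate 2 or 3 (log2 0.11 to 0.16, adjusted p = 0.051 to 0.19), and with scaling by total reads alone (0.42) and with only the 2 groups compared (0.082). Without IGF1 replicate 1 the same difference was log2 0.22, adjusted p = 4.6e-05, and Mmp2 was then also lower with phenylephrine (log2 -0.11, adjusted p = 0.014). Mmp24 rose with phenylephrine (log2 0.38, adjusted p = 0.0017, a call that ended with scaling by total reads alone (0.051)), and Mmp17 with IGF1 (log2 0.34, adjusted p = 0.0048).

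Mmp3, Mmp10 and Mmp12 were the other MMPs to rise with phenylephrine. They encode secreted proteases, stromelysin 1, stromelysin 2 and macrophage elastase, and lie within 1 run of 10 MMP genes on chromosome 8 in the GRCr8 annotation. They are shown together because these 3, and no other of the 76 members with a promoter in the RefSeq table, held the letters TGANTCA, which read the same on both strands and form the site of AP-1 factors. Each promoter runs from 250 bases before to 50 bases after the annotated start, 5′ to 3′ on the strand of the gene, with TGANTCA in capitals. They lie on the plus strand of GRCr8, Mmp3 at chr8:12925031-12925330, Mmp10 at chr8:12974457-12974756 and Mmp12 at chr8:12866402-12866701.
Mmp3: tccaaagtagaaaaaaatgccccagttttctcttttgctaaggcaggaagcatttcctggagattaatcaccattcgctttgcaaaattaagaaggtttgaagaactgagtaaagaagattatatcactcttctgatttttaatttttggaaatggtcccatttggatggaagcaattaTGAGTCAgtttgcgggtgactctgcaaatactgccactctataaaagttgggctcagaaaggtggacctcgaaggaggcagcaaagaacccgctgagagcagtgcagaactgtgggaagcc
Mmp10: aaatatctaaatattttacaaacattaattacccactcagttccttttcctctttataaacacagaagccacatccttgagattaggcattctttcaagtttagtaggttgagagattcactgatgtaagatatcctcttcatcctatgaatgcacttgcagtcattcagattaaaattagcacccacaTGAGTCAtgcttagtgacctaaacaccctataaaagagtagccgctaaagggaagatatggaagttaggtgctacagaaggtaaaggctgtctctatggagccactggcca
Mmp12: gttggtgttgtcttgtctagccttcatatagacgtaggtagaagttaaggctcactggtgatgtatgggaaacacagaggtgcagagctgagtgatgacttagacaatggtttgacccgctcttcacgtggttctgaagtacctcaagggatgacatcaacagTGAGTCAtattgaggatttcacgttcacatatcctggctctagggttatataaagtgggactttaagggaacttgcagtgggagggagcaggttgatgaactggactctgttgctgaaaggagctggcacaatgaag

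The match began 71 bases before the start in Mmp3, 61 in Mmp10 and 87 in Mmp12. The letters were present in 7.33% of the 33469 promoters of the table and in 3.95% of the 76 members matched, that is in the 3 shown. A match in the letters is a description of the sequence and was not measured as a binding site, and its relation to the calls was not tested. Of the 3 calls, that of Mmp10 rests on few reads and that of Mmp12 ended when some single samples were left out, as given below. Searching was limited to this window, and the starts are those of RefSeq and were not read from these cells.

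The levels of these 3 proteases were low. Mmp3 had 2.61, 1.57 and 1.81 CPM with phenylephrine, 0.724, 0.745 and 0.461 CPM with IGF1 and 0.849, 0.806 and 0.640 CPM with vehicle. Each phenylephrine sample was above each vehicle sample, and the rise was 2.60-fold (log2 fold change 1.38 ± 0.28 SE, adjusted p = 6.6e-04), while IGF1 overlapped vehicle (adjusted p = 0.51). Mmp12 had 18.7, 14 and 17.1 CPM with phenylephrine, 9.61, 10.1 and 9.95 CPM with IGF1 and 14.9, 11.9 and 14 CPM with vehicle. It rose by log2 0.28 with phenylephrine (adjusted p = 0.032), with overlap between the groups, and that call ended without phenylephrine replicate 1 or 3 or vehicle replicate 2 or 3 (log2 0.19 to 0.29, adjusted p = 0.066 to 0.17), and with scaling by total reads alone (0.52). With IGF1 it fell to a level below every vehicle sample (log2 -0.46, adjusted p = 0.0024).

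Mmp10, named here after its values were seen, stood just inside the minimum, with 15, 10 and 17 reads with phenylephrine, 4, 8 and 2 reads with IGF1 and 15, 3 and 6 reads with vehicle. It reached 10 reads in 4 samples and would have entered through the phenylephrine group alone, so its call as higher with phenylephrine (log2 1.44, adjusted p = 0.036) is a description only. The call ended without phenylephrine replicate 1 or 3 or vehicle replicate 2 or 3 (log2 1.12 to 1.36, adjusted p = 0.095 to 0.12), and with scaling by total reads alone (0.064). Just inside the minimum stood Col23a1 as well, whose sample of rank 3 had 22 reads, and just outside stood Col1a2, whose sample of rank 3 had 8. Of the other 12 matched rows below the minimum, 8 were MMPs, and Mmp1, Mmp20, Mmp27 and Mmp28 had no read in any sample. Markers of macrophages and leukocytes, cells Mmp12 is known from, were higher with phenylephrine in 0 of 9 tested genes and lower in 2, beside 27.9% and 28.9% of all genes. With IGF1, 0 were higher and 1 lower (Lyz2), beside 24.7% and 23.4% of all genes, and without IGF1 replicate 1 Cd68 was lower too. The part of these markers in the level of Mmp12 was not tested.

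Among the TIMPs, Timp1 rose with phenylephrine and Timp2 fell, and Timp4 rose with IGF1. Timp1, an inhibitor of most secreted MMPs, had 98.9, 104 and 95.8 CPM with phenylephrine, 38.3, 33.4 and 35.8 CPM with IGF1 and 39.8, 35.2 and 32.2 CPM with vehicle. The phenylephrine samples were all above the others, at 2.78-fold of vehicle (log2 fold change 1.48 ± 0.071 SE, adjusted p = 1.1e-09), and the IGF1 and vehicle samples overlapped (log2 0.001, SE 0.072, adjusted p = 0.99). Timp2, which also takes part in activation of MMP2 by MMP14, had 382, 382 and 384 CPM with phenylephrine, 398, 449 and 439 CPM with IGF1 and 426, 423 and 421 CPM with vehicle. Its fall with phenylephrine was small, at log2 -0.15 (adjusted p = 0.012). Timp3, which binds to the matrix, had 64.8, 65.2 and 67.5 CPM with phenylephrine, 67, 84.3 and 85.5 CPM with IGF1 and 75, 73.6 and 70.2 CPM with vehicle. It was lower with phenylephrine than with IGF1 (log2 -0.27, adjusted p = 0.0098). Without IGF1 replicate 1, which was below both other IGF1 samples, Timp3 was also lower with phenylephrine (log2 -0.15, adjusted p = 0.001) and higher with IGF1 (log2 0.22, adjusted p = 1.5e-05) against vehicle. Without that sample Timp2 was higher with IGF1 too (log2 0.07, adjusted p = 0.048). Timp4 had 0.206, 0.320 and 0.323 CPM with phenylephrine, 0.362, 1.13 and 1.63 CPM with IGF1 and 0.445, 0.391 and 0.582 CPM with vehicle, on 6 to 78 reads. IGF1 replicate 1 lay below every vehicle sample and IGF1 replicates 2 and 3 above. Its rise with IGF1 (log2 1.18, adjusted p = 0.03) ended without IGF1 replicate 2 or 3 or vehicle replicate 1 or 2 (log2 0.70 to 1.13, adjusted p = 0.062 to 0.22), and with scaling by total reads alone (0.053) and with only the 2 groups compared (0.06), and was log2 1.53, adjusted p = 2.4e-04 without IGF1 replicate 1.

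Of the 15 ADAMTS proteases and ADAMTS-like proteins, 9 fell and 2 rose with phenylephrine, and 4 fell and 4 rose with IGF1. Adamts7, known to cut cartilage oligomeric matrix protein, had 83, 88 and 84.9 CPM with phenylephrine, 141, 165 and 163 CPM with IGF1 and 159.6, 162 and 151 CPM with vehicle. The phenylephrine samples lay far below the rest, 1.84-fold under vehicle (log2 fold change -0.88 ± 0.057 SE, adjusted p = 1.2e-08), and IGF1 overlapped vehicle (adjusted p = 0.91). Adamts5, an aggrecanase and versicanase, had 22.3, 22.3 and 18.7 CPM with phenylephrine, 31.7, 39 and 39.6 CPM with IGF1 and 34.5, 34.6 and 27.9 CPM with vehicle and fell with phenylephrine (log2 -0.62, adjusted p = 5.2e-04). With IGF1 it did not pass (log2 0.19, adjusted p = 0.16), and without IGF1 replicate 1 it was higher (log2 0.29, adjusted p = 0.0083). Its neighbour on chromosome 11, Adamts1, passed in no comparison in the edgeR fit (adjusted p = 0.65 to 0.94), and was lower with phenylephrine with scaling by total reads alone (0.013). Adamtsl4, an ADAMTS-like protein without protease activity that associates with fibrillin microfibrils, had 59.5, 55.8 and 55.2 CPM with phenylephrine, 31.9, 38.5 and 38.6 CPM with IGF1 and 76.9, 72.4 and 70.3 CPM with vehicle. It fell with both stimuli, 1.29-fold with phenylephrine (adjusted p = 2.7e-04) and 2.01-fold with IGF1 (adjusted p = 2.3e-08).

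Opposite calls were those of Adamts3 and Adamts4. Adamts3, which trims the propeptide of procollagens and processes VEGF-C, had 2.20, 1.79 and 1.52 CPM with phenylephrine, 3.75, 6.53 and 5.78 CPM with IGF1 and 3.54, 3.27 and 2.77 CPM with vehicle, with log2 -0.80 for phenylephrine (adjusted p = 0.006) and 0.76 for IGF1 (adjusted p = 0.0046). Adamts4, an aggrecanase, had 0.343, 0.735 and 0.388 CPM with phenylephrine, 2.01, 1.92 and 1.61 CPM with IGF1 and 1.07, 0.977 and 0.659 CPM with vehicle. It rose with IGF1 (log2 1.03, adjusted p = 0.0064) and was lower with phenylephrine (log2 -0.87, adjusted p = 0.038), a call that ended without phenylephrine replicate 1 or 3 or vehicle replicate 1 or 2 (log2 -0.82 to -0.68, adjusted p = 0.085 to 0.14).

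The 2 rises with phenylephrine were those of Adamts19 and Adamtsl5. Adamts19 had 16.5, 19.1 and 17.6 CPM with phenylephrine, 19.7, 6.10 and 7.31 CPM with IGF1 and 5.66, 5.79 and 6.96 CPM with vehicle, and Adamtsl5 had 51.3, 55.4 and 54.2 CPM with phenylephrine, 45.9, 22.1 and 22.7 CPM with IGF1 and 25, 25.8 and 25 CPM with vehicle. In both, IGF1 replicate 1 lay near the phenylephrine samples and IGF1 replicates 2 and 3 near vehicle. The rise of Adamts19 with phenylephrine (log2 1.53, adjusted p = 0.026) ended without any 1 phenylephrine sample or any 1 vehicle sample (log2 1.46 to 1.62, adjusted p = 0.053 to 0.08), and was log2 1.53, adjusted p = 2.3e-17 without IGF1 replicate 1. That of Adamtsl5 (log2 1.09, adjusted p = 0.016) ended without vehicle replicate 1 or 3 (log2 1.06 to 1.07, adjusted p = 0.051 to 0.052), and was log2 1.09, adjusted p = 2.5e-22 without IGF1 replicate 1. Adamtsl5 had log2 0.24 with IGF1 in all samples (adjusted p = 0.54) and fell with IGF1 once replicate 1 was left out (log2 -0.17, adjusted p = 0.012).

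**Figure D3:**
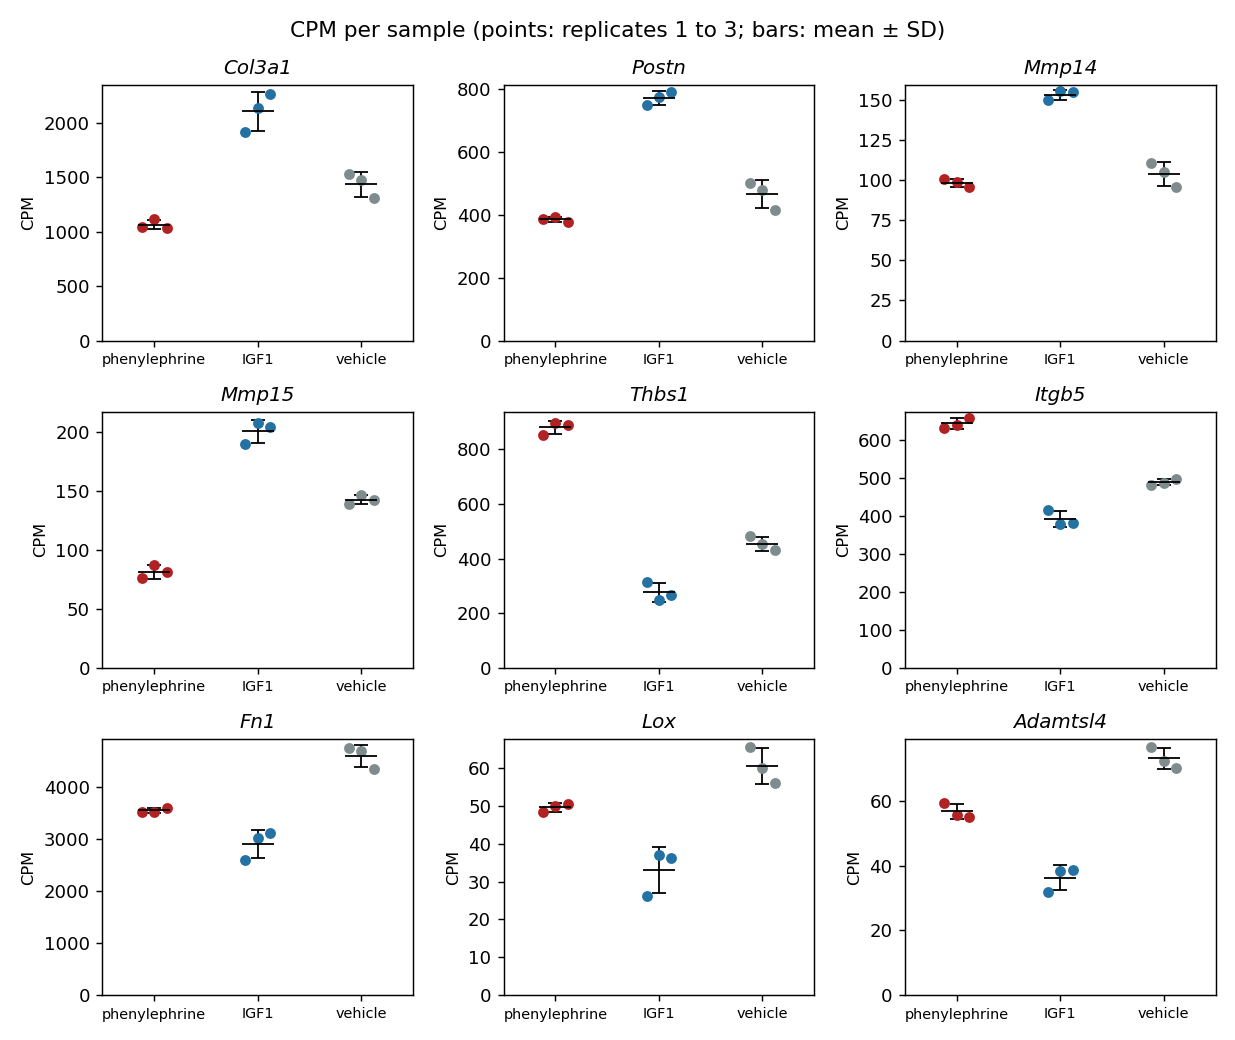
Levels in CPM of 9 members that changed with IGF1 against vehicle (Col3a1, Postn, Mmp14, Mmp15, Thbs1, Itgb5, Fn1, Lox and Adamtsl4), with each sample as a point and the mean ± SD of 3 samples per group, from phenylephrine through IGF1 to vehicle, on axes that start at 0. Col3a1, Postn, Mmp14 and Mmp15 have their highest samples with IGF1, whereas Thbs1, Itgb5, Fn1, Lox and Adamtsl4 have their lowest there.

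Of the 7 integrin beta subunits, 2 rose and none fell with phenylephrine, and 1 rose and 3 fell with IGF1. Itgb1, the beta 1 chain, the main beta subunit of cardiomyocytes and partner of many alpha chains, had 2579, 2609.8 and 2682 CPM with phenylephrine, 1782, 1497 and 1474 CPM with IGF1 and 1463, 1462 and 1465 CPM with vehicle. All phenylephrine samples were above all others, at 1.79-fold of vehicle (log2 fold change 0.84 ± 0.062 SE, adjusted p = 3.9e-08). All IGF1 samples also lay above the vehicle samples, replicates 2 and 3 only just, and the difference did not pass (log2 0.12, adjusted p = 0.14).

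Itgb5, which pairs with the alpha v chain to bind vitronectin, had 632, 639 and 659 CPM with phenylephrine, 416, 377 and 381 CPM with IGF1 and 482, 487 and 498 CPM with vehicle. It rose 1.31-fold with phenylephrine (log2 0.40, adjusted p = 3.1e-06) and fell 1.25-fold with IGF1 (log2 -0.32, adjusted p = 3.2e-05), with no overlap between groups. Itgb6, another partner of alpha v and known from epithelia, was scarce, with 0.275, 0.352 and 0.452 CPM with phenylephrine, 1.55, 2.80 and 2.18 CPM with IGF1 and 0.243, 0.513 and 0.523 CPM with vehicle. It had the largest fold change of the members with IGF1, a rise of log2 2.36 (SE 0.32, adjusted p = 2.7e-05), on 47 to 124 reads in the IGF1 samples, 8 to 14 with phenylephrine and 12 to 27 with vehicle. Itgb8 had 6.90, 7.67 and 6.17 CPM with phenylephrine, 2.73, 4.16 and 3.79 CPM with IGF1 and 5.92, 7.04 and 4.96 CPM with vehicle and fell with IGF1 (log2 -0.73, adjusted p = 0.0021). Itgav, the alpha v chain itself, had no row under that symbol.

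Of 12 alpha subunits, 4 rose and 3 fell with phenylephrine (33.3% and 25%, beside 27.9% and 28.9% of all genes). With IGF1, 3 rose and 1 fell (25% and 8.33%, beside 24.7% and 23.4% of all genes). Itga1, which pairs with beta 1 to bind collagen and laminin, had 79.1, 85.4 and 88.5 CPM with phenylephrine, 47.3, 47.9 and 45.5 CPM with IGF1 and 48, 52.4 and 46.2 CPM with vehicle. The phenylephrine samples stood apart at 1.73-fold of vehicle (log2 fold change 0.79 ± 0.056 SE, adjusted p = 2.7e-08), and IGF1 overlapped vehicle (adjusted p = 0.41). Itga7, the laminin-binding alpha chain of differentiated muscle, had 418, 424 and 423 CPM with phenylephrine, 407, 304 and 304 CPM with IGF1 and 274, 269 and 272 CPM with vehicle. It rose with phenylephrine (log2 0.64, adjusted p = 5.1e-04) and with IGF1 (log2 0.32, adjusted p = 0.026). The IGF1 call ended without any 1 vehicle sample (log2 0.30 to 0.31, adjusted p = 0.068 to 0.07), and with only the 2 groups compared (0.051), and without IGF1 replicate 1, which lay near the phenylephrine samples, the rise was log2 0.16, adjusted p = 1.2e-05.

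Itga5 and Itga6 also had IGF1 replicate 1 apart from its group. Itga5, the fibronectin-binding partner of beta 1, had 461, 509 and 483 CPM with phenylephrine, 449, 309 and 294 CPM with IGF1 and 323, 346 and 344 CPM with vehicle, and Itga6, a laminin-binding partner of beta 1 and beta 4, had 105, 112 and 122 CPM with phenylephrine, 109, 60.2 and 63.7 CPM with IGF1 and 57, 56.8 and 56.3 CPM with vehicle. Itga5 was higher with phenylephrine (log2 0.52, adjusted p = 0.028), a call that ended without phenylephrine replicate 2 or 3 or any 1 vehicle sample (log2 0.48 to 0.53, adjusted p = 0.059 to 0.084) and was log2 0.52, adjusted p = 5.8e-15 without IGF1 replicate 1. With IGF1 it had log2 0.06 (adjusted p = 0.81) in all samples and was lower, at log2 -0.16, adjusted p = 4.8e-04, without replicate 1. Itga6 rose with phenylephrine (log2 0.998, adjusted p = 0.0099), and its difference of phenylephrine from IGF1 was log2 0.55 (adjusted p = 0.086), which passed without IGF1 replicate 1 (log2 0.87, adjusted p = 9e-19), and in DESeq2 (0.044) and in limma voom with sample quality weights (5.3e-09). With IGF1 Itga6 had log2 0.45 (adjusted p = 0.16), and without replicate 1 it was higher (log2 0.13, adjusted p = 0.021). Among those that fell, Itga11, a collagen receptor of fibroblasts, had 20.2, 21.1 and 18.3 CPM with phenylephrine, 14.4, 18.2 and 18.5 CPM with IGF1 and 27.1, 24.2 and 24.2 CPM with vehicle, with log2 -0.34 for phenylephrine (adjusted p = 0.0059) and -0.56 for IGF1 (adjusted p = 1.7e-04).

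**Figure D4:**
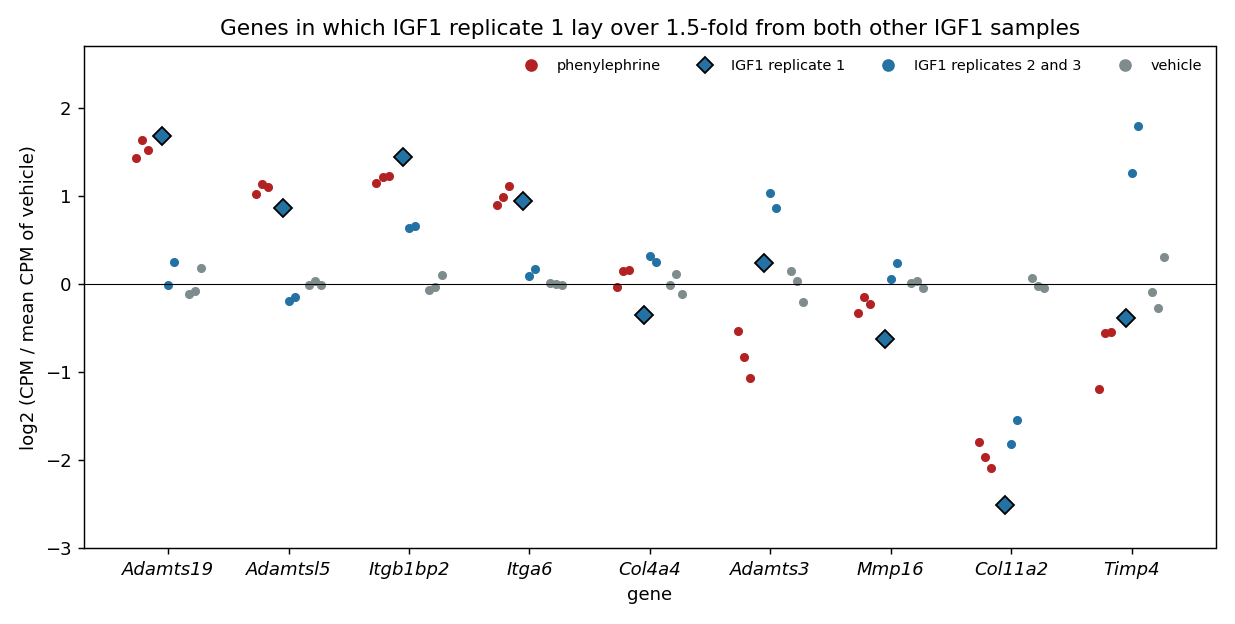
Levels of the 9 members for which IGF1 replicate 1 lay more than 1.5-fold from both other IGF1 samples, as log2 of the CPM over the mean of the 3 vehicle samples, with each of the 9 samples as a point. IGF1 replicate 1 lies near the phenylephrine samples for Adamts19, Adamtsl5 and Itga6 and above all other samples for Itgb1bp2, and below IGF1 replicates 2 and 3 for Col4a4, Adamts3, Mmp16, Col11a2 and Timp4.

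The same promoters were also searched for GGAATG, the letters bound by TEAD factors, on both strands. They were found in 14.2% of all promoters of the table and in 23.7% of the 76 members matched, in 6 of 26 that rose with phenylephrine (23.1%), 5 of 24 that fell (20.8%) and 7 of 26 not called (26.9%). Shown are 4 of those 6, whose values are given above: Lamc1 (chr13:68051937-68052236, minus strand), Thbs1 (chr3:125510000-125510299, plus strand), Timp1 (chrX:3771073-3771372, minus strand) and Itgb1 (chr19:73602027-73602326, plus strand). The sequences are those of RefSeq for GRCr8 over the same window, 5′ to 3′ on the strand of the gene, with GGAATG or its reverse complement CATTCC in capitals.
Lamc1: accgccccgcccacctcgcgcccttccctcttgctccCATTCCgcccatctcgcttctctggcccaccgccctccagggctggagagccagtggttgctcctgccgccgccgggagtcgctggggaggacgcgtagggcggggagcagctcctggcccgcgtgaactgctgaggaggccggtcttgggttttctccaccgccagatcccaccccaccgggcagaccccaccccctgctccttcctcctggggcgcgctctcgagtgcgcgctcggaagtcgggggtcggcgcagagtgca
Thbs1: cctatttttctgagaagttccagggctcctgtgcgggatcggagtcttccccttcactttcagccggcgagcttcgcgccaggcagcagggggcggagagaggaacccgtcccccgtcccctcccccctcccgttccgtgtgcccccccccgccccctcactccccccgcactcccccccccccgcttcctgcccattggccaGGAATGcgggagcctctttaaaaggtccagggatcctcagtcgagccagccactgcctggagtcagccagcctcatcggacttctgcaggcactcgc
Timp1: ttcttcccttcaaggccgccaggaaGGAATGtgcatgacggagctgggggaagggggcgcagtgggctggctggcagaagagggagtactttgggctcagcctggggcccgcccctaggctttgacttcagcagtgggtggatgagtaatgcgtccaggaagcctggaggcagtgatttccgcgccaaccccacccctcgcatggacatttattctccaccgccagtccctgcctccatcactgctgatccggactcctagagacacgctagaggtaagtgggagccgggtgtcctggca
Itgb1: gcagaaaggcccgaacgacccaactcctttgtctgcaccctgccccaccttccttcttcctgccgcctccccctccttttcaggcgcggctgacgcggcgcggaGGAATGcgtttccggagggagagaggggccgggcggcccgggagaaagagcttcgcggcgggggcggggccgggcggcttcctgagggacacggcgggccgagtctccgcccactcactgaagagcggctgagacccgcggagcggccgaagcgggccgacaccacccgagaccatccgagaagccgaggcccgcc

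Another 4 rows matched by prefix only and encode no matrix protein or integrin chain. Itgb1bp2, melusin, a muscle protein that binds the beta 1 integrin tail, had 203, 212 and 214 CPM with phenylephrine, 248, 142 and 144 CPM with IGF1 and 87.6, 89.1 and 98.1 CPM with vehicle. It rose 2.29-fold with phenylephrine (log2 1.19, adjusted p = 0.004) and 1.94-fold with IGF1 (log2 0.95, adjusted p = 0.013, and 0.64, adjusted p = 5.3e-17 without IGF1 replicate 1). Itgb3bp, which encodes a centromere protein, rose with both stimuli (log2 0.70 and 0.88, adjusted p = 1.1e-05 and 1.2e-06). Col4a3bp, now named Cert1, a ceramide transfer protein, fell with IGF1 (log2 -0.18, adjusted p = 0.0018) and was higher with phenylephrine by log2 0.11 (adjusted p = 0.033), a call that ended without phenylephrine replicate 1 or 2, IGF1 replicate 2 or 3 or any 1 vehicle sample (log2 0.08 to 0.11, adjusted p = 0.057 to 0.16). Its direction turned to log2 -0.09 with scaling by total reads alone. Itgb1bp1, an adaptor of the beta 1 tail, passed in no comparison with the scaling used here.

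Genes that act with the members were read from 4 further lists. Of 24 genes of integrin adhesion, 18 rose and 5 fell with phenylephrine, beside 27.9% and 28.9% of all genes. Their median log2 fold change was 0.45, beside -0.029 over all genes. With IGF1, 5 rose and 8 fell (median 0.044), beside 24.7% and 23.4% of all genes. Without IGF1 replicate 1, 18 rose and 5 fell with phenylephrine, and 6 rose and 12 fell with IGF1. Actn1, Ilk, Lims2 and Zyx were then lower and Vasp higher with IGF1. In that fit the shares of all genes were 31.2% and 32.2% with phenylephrine, and 27.4% and 26.6% with IGF1. Actn1, the non-muscle alpha-actinin that ties integrins to actin, had 1429, 1516 and 1528 CPM with phenylephrine, 559, 256 and 258 CPM with IGF1 and 284, 277 and 268 CPM with vehicle, a rise of 5.39-fold with phenylephrine (adjusted p = 8.5e-04). Here too IGF1 replicate 1 was above the other IGF1 samples. With IGF1 the adjusted p was 0.38 in all samples, and without replicate 1 Actn1 was lower (log2 -0.10, adjusted p = 0.0085). Cd151, a tetraspanin partner of laminin-binding integrins, had 49.3, 47.4 and 39.9 CPM with phenylephrine, 17.9, 12.8 and 13.1 CPM with IGF1 and 13.6, 14.4 and 12.4 CPM with vehicle and rose 3.38-fold with phenylephrine (adjusted p = 3.2e-07). Sdc4, syndecan 4, a coreceptor for fibronectin, had 121, 124 and 126 CPM with phenylephrine, 55.8, 48.4 and 48 CPM with IGF1 and 95.1, 88.9 and 90.7 CPM with vehicle, higher than vehicle with phenylephrine (adjusted p = 8.7e-06) and lower with IGF1 (adjusted p = 1.5e-08). Of the 10 smooth muscle and pericyte markers, 5 were higher with phenylephrine (Acta2, Tagln, Cnn1, Cspg4 and Des) and 2 lower (Myh11 and Kcnj8), beside 27.9% and 28.9% of all genes. With IGF1, 1 was higher (Des) and 2 lower (Tagln and Pdgfrb), beside 24.7% and 23.4% of all genes. Without IGF1 replicate 1, 5 markers were higher and 3 lower with phenylephrine, and 3 were higher and 3 lower with IGF1, beside the shares of that fit given above. The part of these markers in the result was not tested.

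Of 23 genes that fold or process collagen, 8 rose and 6 fell with phenylephrine, beside 27.9% and 28.9% of all genes. With IGF1, 3 rose and 8 fell, beside 24.7% and 23.4% of all genes. Without IGF1 replicate 1 these counts were 8 and 7 with phenylephrine and 3 and 9 with IGF1. Serpinh1, the collagen chaperone HSP47, had 1657, 1675 and 1605 CPM with phenylephrine, 1564, 1397 and 1401 CPM with IGF1 and 1307, 1279.7 and 1251 CPM with vehicle, higher with both stimuli (log2 0.36, adjusted p = 2.2e-05 with phenylephrine; log2 0.18, adjusted p = 0.007 with IGF1). P3h2, a prolyl 3-hydroxylase acting mainly on type IV collagen, had 20.0, 20.0 and 19.2 CPM with phenylephrine, 12.2, 5.83 and 6.66 CPM with IGF1 and 8.63, 7.87 and 8.59 CPM with vehicle and rose 2.36-fold with phenylephrine (adjusted p = 0.0019). Its IGF1 replicate 1 lay above vehicle and IGF1 replicates 2 and 3 below, with an adjusted p of 0.88 for IGF1, and log2 -0.42, adjusted p = 5.4e-04 without replicate 1. P4ha3, an alpha subunit of prolyl 4-hydroxylase, fell with IGF1 (log2 -0.81, adjusted p = 9.1e-07). Pcolce, which speeds removal of the procollagen C-propeptide, fell with phenylephrine (log2 -0.33, adjusted p = 4.6e-06).

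Of 25 tested proteoglycans, elastic fibre proteins and basement membrane partners, 6 rose and 10 fell with phenylephrine, beside 27.9% and 28.9% of all genes. With IGF1, 4 rose and 13 fell, beside 24.7% and 23.4% of all genes. Without IGF1 replicate 1 these counts were 9 and 10 with phenylephrine and 5 and 15 with IGF1. Ecm1, extracellular matrix protein 1, had 489, 474 and 458 CPM with phenylephrine, 147, 132 and 133 CPM with IGF1 and 195, 202 and 204 CPM with vehicle, 2.37-fold higher with phenylephrine (adjusted p = 5.7e-11) and 1.46-fold lower with IGF1 (adjusted p = 2.9e-07). Tgfbi, a collagen-binding protein induced by TGF-beta, had 23.7, 24.3 and 28.8 CPM with phenylephrine, 38.5, 40.7 and 38.4 CPM with IGF1 and 16.5, 16.7 and 18 CPM with vehicle and rose with both stimuli, most with IGF1 (log2 1.20, adjusted p = 8.5e-09). Ctgf, connective tissue growth factor, had 2621, 2742 and 2677 CPM with phenylephrine, 1439, 360.4 and 362 CPM with IGF1 and 1017, 1034 and 1066 CPM with vehicle. IGF1 replicate 1 lay between the phenylephrine and vehicle samples and IGF1 replicates 2 and 3 below vehicle, and no call was made against vehicle in the edgeR fit over all samples (adjusted p = 0.083 with phenylephrine and 0.48 with IGF1). Without IGF1 replicate 1, Ctgf was higher with phenylephrine (log2 1.37, adjusted p = 1.1e-34) and lower with IGF1 (log2 -1.53, adjusted p = 1.3e-32). Of 17 genes of the plasminogen system and membrane proteases, 7 rose and 2 fell with phenylephrine, and 6 rose and 5 fell with IGF1, beside the same shares of all genes. Without IGF1 replicate 1 these counts were 8 and 3 with phenylephrine and 7 and 5 with IGF1. Plaur, the urokinase receptor, had 9.65, 10.9 and 10.2 CPM with phenylephrine, 3.88, 2.71 and 3.19 CPM with IGF1 and 5.11, 4.96 and 4.77 CPM with vehicle, a rise of log2 1.05 with phenylephrine (adjusted p = 4.8e-06) and a fall of -0.62 with IGF1 (adjusted p = 0.0014).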

How the data were processed

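RNA of 3 samples per group was measured in rat neonatal ventricular myocytes given phenylephrine, IGF1 or vehicle, with groups and replicate numbers taken from the sample titles. The authors deposited whole-number read counts by gene symbol, not normalized, for 17327 rows in 9 samples. The rat build rn5 and the tools STAR, HTSeq and DESeq are named in the submitters' processing notes. Their versions, their roles and whether counting used strand are not given in the sources used here, so overlapping and antisense genes cannot be told apart. Another 26 rows carry dates in place of gene names, and none is a member.

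From the counts, genes were kept by filterByExpr of edgeR 4.0.16 at its defaults (minimum count 10, minimum total 15), which left 11873 genes with 99.99% of the reads. After TMM scaling, 1 robust quasi-likelihood fit with a term for group took in all 9 samples. Adjusted p-values are those of edgeR's quasi-likelihood F test with Benjamini-Hochberg adjustment over all genes tested, at a threshold of 0.05. The SE of a log2 fold change is its size over the square root of F, so it rests on the spread of all 9 samples. Levels are CPM scaled by TMM. They are not per length, so they are compared only between samples of a gene or of the same sum of genes. Such a sum rests mostly on its genes with the most reads and is no level of each gene in it. The fit was tested on simulated counts.

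Members, classes and lists were chosen with earlier results of these data known, so no list was tested as a set. Genes named are, by class and comparison, up to 3 with the largest rise and 3 with the largest fall (2 and 2 for phenylephrine against IGF1) past the threshold at 1 CPM or more, and those always named, such as Col1a1, Fn1 and Itgb1. From each other list up to 2 and 2 were taken. Lama5, Lamb3, Col4a4, Col5a2, Fbn2, Mmp10, Mmp24 and others outside this are named for their place beside these. Some genes that the rule gives are not reported here. Alternatives were RLE factors, scaling by library size only, DESeq2 1.42.0, limma 3.58.1 (voom with sample quality weights), no filter and a minimum count of 50, only the 2 groups compared, the replicate number as a block, a threshold of 0.01 and leaving out each sample in turn. Promoter sequences are those of RefSeq for GRCr8, with 75 members matched by symbol and 1 by an older symbol. Coordinates are of that build only. R 4.3.3 was used.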

Additional observations from a re-analysis of the deposited data

How the results depend on the processing

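All 6 counts of members called (higher and lower in 3 comparisons) stayed within 1.5 times the reported count under every alternative run. Leaving out 1 sample at a time gave 21 to 30 higher and 28 to 40 lower members for phenylephrine against vehicle, 21 to 35 and 25 to 33 for IGF1 against vehicle, and 32 to 39 and 26 to 34 for phenylephrine against IGF1. Scaling by total reads alone gave 23 and 48, 20 and 30, and 29 and 35, with a median of all genes of -0.223 for phenylephrine against vehicle. Under that scaling Col4a3bp (-0.088), Col5a3 (-0.046) and Itgb1bp1 (-0.125) turned to log2 values below 0 with phenylephrine. Against vehicle with IGF1, Itga5 turned to -0.14 in limma voom with sample quality weights. With 1 sample left out its log2 value ran from -0.162 without IGF1 replicate 1 to 0.159 without IGF1 replicate 3, and that of Adamtsl5 from -0.172 without IGF1 replicate 1 to 0.412 without IGF1 replicate 2. The cause was not tested. A minimum count of 50 left 99 of 104 members. Deviations from the group means correlated at -0.085 to 0.021 for same-numbered samples and at -0.073 to 0.114 for others. No sign of pairing by replicate number was seen. With 3 samples per group a weak shared effect could be missed. With the replicate block, 28 members were higher and 32 lower with phenylephrine, 26 and 29 with IGF1, and 34 and 29 for phenylephrine against IGF1. The adjusted p passed the threshold no longer under the block for Col1a1 (0.072), Col6a2 (0.062), Adamts19 (0.051) and Itga5 (0.06) with phenylephrine, Col4a1 (0.056) and Mmp2 (0.051) with IGF1, and Adamtsl5 (0.063) and Itga5 (0.079) between the stimuli, while Fbn2 was called with phenylephrine (0.0083) and IGF1 (0.0051). Depth limits Mmp10, Col23a1, Lamc3, Timp4 and Itgb6, each with a sample under 10 reads.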

Other observations

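Col1a1 and Col1a2 encode the chains of type I collagen, but the row of Col1a2 held few reads in every sample. It had 1, 2 and 6 reads with phenylephrine, 4, 8 and 3 reads with IGF1 and 10, 10 and 5 reads with vehicle, while Col1a1 had 90603 to 187526 reads per sample. How the row of Col1a2 came to hold so few reads was not tested.

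The first pair of principal components over the log CPM of the 104 members held 52.6% and 33.4% of the variance. On the first, the phenylephrine samples lay at 3.70 to 4.39, IGF1 replicates 2 and 3 at -3.54 and -3.88, IGF1 replicate 1 at -1.50 and the vehicle samples at -1.38 to -0.61. On the second, IGF1 replicate 1 lay at -3.73, IGF1 replicates 2 and 3 at -1.88 and -1.80, the phenylephrine samples at -0.96 to -0.34 and the vehicle samples at 2.996 to 3.54.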
